A study of Homo sapiens with 9 samples.

Results

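In TC32 cells exposed to Wnt3a, 20 gene rows had a longer average transcript when SB-505124 was added. They were GPATCH2L, HMBOX1, ATF7, UNK, DCP2, POLR2J3, FEZF1, SNAPC3, PCGF5, MAP3K13, CRNDE, NEURL4, GPALPP1, LINC01515, MNT, SDCCAG8, CISD3, FGFR1OP2, ANKRD10 and BRWD1. The deposited tables hold 58233 gene rows, of which 8881 had a TPM (abundance per transcript, corrected for length and depth) of at least 5 in all 9 libraries. Among these, the 20 genes had an effective length in each of the 3 inhibitor libraries above that in all 6 other libraries, and a log2 ratio of mean effective lengths, inhibitor over Wnt3a, of at least 0.3. Effective length is the average length of a gene's transcripts, weighted by their estimated abundance, less the positions at the end where a read cannot start. The measure therefore moves when reads are assigned to other annotated transcripts of the same gene. The genes were thus selected on their effective length, with the TPM limit, in these same 9 libraries, and those values are given as a description. A p-value from a fit of length over all rows is no independent result for these genes.

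TC32 is an established Ewing sarcoma cell line, grown here in medium with serum. Vehicle cells received PBS and then DMSO, Wnt3a cells were exposed to the ligand for 28 h in all with DMSO as the vehicle of the inhibitor, and inhibitor cells received Wnt3a for 4 h and SB-505124 for the following 24 h, with Wnt3a listed for 28 h in all. SB-505124 blocks the kinase of the type I receptors for TGF-β and activin. Each group had 3 libraries of polyadenylated RNA, and no group received SB-505124 without Wnt3a. No source used here says whether replicates came from separate cultures. The p-values below therefore rest on the variation from library to library, part or all of which could be technical.

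One gene can give transcripts of several lengths through the choice of the polyadenylation site, of the last exon, of the first exon or of spliced exons. Shorter products often end early inside an intron, keep an intron, or carry a stop codon that exposes them to nonsense-mediated decay, the pathway that degrades mRNAs with a premature stop. A longer 3′ untranslated region offers more sites for microRNAs and RNA-binding proteins, so the choice is a known layer of control of an mRNA's stability and translation.

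Libraries held between 28844348 and 42976799 expected counts, and the 20 genes between 130.4 and 9564 expected counts per library. Fewer genes had at least 1 count in the inhibitor libraries (23196 to 23250) than in the others (25128 to 26802). The 12 Ewing sarcoma marker genes all had a mean of at least 1 TPM, with summed TPM of 1112 to 1580 in the inhibitor libraries and 1553 to 2113 in the others. Of 6 endothelial and 6 epithelial markers 0 reached a mean of 1 TPM, of 6 leukocyte markers 1 did, with CD3E at 0 throughout, and of 9 fibroblast markers 8 did. Summed TPM of the leukocyte markers were 4.82 to 8.18 in the inhibitor libraries and 2.87 to 4.61 in the others, with CD68 at a mean of 6.24 TPM against 2.07 with Wnt3a. Those of the fibroblast markers were 246 to 258 in the inhibitor libraries and 352 to 638 in the others, of which THY1 made up a mean of 195 TPM with the inhibitor and 452 with Wnt3a, while the means of LUM (35.8 against 34.4) and DCN (12.1 against 9.64) were no lower. Summed TPM of 8 mitochondrial RNAs lay between 30323 and 48544 in the inhibitor libraries, lowest in replicate 1, and between 43008 and 56256 in the others. Summed TPM of 6 nuclear RNAs lay between 91.8 and 206 in the inhibitor libraries and between 145 and 377 in the others. The part of these differences in the transcript lengths was not tested. In these bulk samples a change in the number of cells of a kind and a change in RNA per cell cannot be told apart.

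Longer transcripts were the minority among all rows. Of the 8881 rows, 254 (2.86%) were longer in all 3 inhibitor libraries than in the 6 others and 1142 (12.9%) were shorter. With the size limit of the rule, 20 rows (0.225%) were longer and 373 (4.2%) were shorter by the mirrored rule. The median log2 ratio of effective length, inhibitor over Wnt3a, was -0.02 over all rows and 0.41 over the 20 genes. In a limma fit over all rows, 6.64% were called against Wnt3a (1.02% longer, 5.62% shorter) and 6.19% against vehicle (0.811% longer, 5.38% shorter). A further 12 rows reached a ratio of 0.3 without being longer in all 3 inhibitor libraries. At the edge of the rule, BRWD1 (0.31), ANKRD10 (0.31) and FGFR1OP2 (0.33) lay just inside, and PRR5L (0.29), EML2 (0.28) and MTA1 (0.28) just outside.

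The gene models of GENCODE release 29 show which transcripts could carry the difference. For 35289 of 35289 genes with a single transcript, the deposited length equalled that of the release to within 0.011 bases, and 19 of the 20 genes had an identifier of the same version. POLR2J3 had another version, so its transcripts were not analysed here. The 19 genes had a median of 11 annotated transcripts (3 to 20), against 8 for all rows with a matching identifier and 8.5 for the rows that were shorter by the mirrored rule. Their median longest transcript was 4996 bases, against 3379 over all rows and 5755 over the shorter rows. As a share of the longest annotated transcript, the median length of the 19 genes was 53.5% with Wnt3a and 69.7% with the inhibitor, while over all rows it was 69.9% and 68%.

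Sorted by length, each gene's transcripts were divided at the widest gap into a long and a short class. The long class held 34 transcripts in all, of which 28 (82.4%) were protein-coding. The short class held 165, of which 50 (30.3%) were protein-coding, 36 processed transcripts without a reading frame, 32 long intergenic non-coding RNAs, 25 retained-intron transcripts and 22 transcripts marked for nonsense-mediated decay. The longest 3′ untranslated region measured 12495 bases in the long and 940 in the short class of GPATCH2L, 7489 and 368 bases in DCP2, and 5081 and 356 bases in ATF7. Of 14 genes with coding transcripts in both classes, it was longer in the long class in 13. In SDCCAG8 it was longer in the short class (310 bases in the long and 1407 in the short). A split by length itself favours a longer region in the long class. In the 17 protein-coding genes matched, the longest coding transcript had a median 3′ untranslated region of 2844 bases, against 1186 in 7722 rows of all kinds and 3794 in 335 of the shorter rows, so a long untranslated region was shared with the rows that were shorter.

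On hg38, UNK spans chr17:75784771-75825799, PCGF5 chr10:91163012-91284331, ATF7 chr12:53507856-53626410, DCP2 chr5:112976702-113020970, FGFR1OP2 chr12:26938383-26966650 and CISD3 chr17:38730235-38735044. GPATCH2L lies at chr14:76151916-76254342, FEZF1 at chr7:122301394-122310691 and MNT at chr17:2384060-2401118. Short stretches at the ends give examples of how long and short transcripts differ. In UNK, PCGF5, ATF7 and DCP2 both a long and a short transcript end close after a polyadenylation hexamer (AATAAA or its variant ATTAAA, searched on the transcript's strand in the last 50 bases), and 1 long and 1 short end of each gene are printed as examples. Several other short transcripts of ATF7, UNK and DCP2 end elsewhere. Sequences come from the transcripts of GENCODE release 29, build hg38, and read 5′ to 3′ on the transcript's strand, with the hexamer in capitals.

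UNK-205 (long, protein-coding, chr17:75825769-75825798, + strand): aaacctattggaAATAAAatatgaacttgc
UNK-202 (short, nonsense-mediated decay, chr17:75794155-75794184, + strand): acaaaaatgtatATTAAAtatccagtagag
PCGF5-201 (long, protein-coding, chr10:91284300-91284329, + strand): attgcagccttcATTAAAaatatctccttt
PCGF5-202 (short, processed transcript, chr10:91227925-91227954, + strand): aaatcttaaatgAATAAAtgcatggctaat
ATF7-201 (long, protein-coding, chr12:53512059-53512088, - strand): tgcaaatataacATTAAActatcaagtgaa
ATF7-212 (short, protein-coding, chr12:53542895-53542924, - strand): aatcagcaagtcAATAAAcatttatcaaat
DCP2-201 (long, protein-coding, chr5:113020919-113020948, + strand): taatgtactatcAATAAAattggctgcttg
DCP2-203 (short, processed transcript, chr5:112984621-112984650, + strand): tctaaaaacctgATTAAAatgccttttgct

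The 4 short ends lie upstream of the long ends, inside the gene. A hexamer of either form stood in the last 50 bases of 22 of 34 long transcripts (64.7%) and 39 of 165 short ones (23.6%), against 31.3% of all 206604 transcripts of at least that length in the release. AATAAA alone stood in 24.7% of all transcripts and ATTAAA in 8.04%, and a transcript can hold both. The classes were split by length, and the hexamer was not counted by class in other genes. The difference between the classes is therefore not read as particular to these genes. Some annotated short models are tagged as incomplete at an end, and a missing hexamer says only that these letters are not in the window.

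In FGFR1OP2 and CISD3 the pair of transcripts shown parts at a splice border instead. The long FGFR1OP2-201 joins an exon to the next one, where the short FGFR1OP2-206 reads on from the same exon into the intron and ends there. CISD3-205, the one short transcript of its gene, starts in the intron that the coding CISD3-204 removes and keeps it before a shared exon. Capitals mark the 15 bases that differ on one side of the border, and lower case the 15 that are shared.

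FGFR1OP2-201 (long, chr12:26960614-26960628 joined to chr12:26963342-26963356, + strand): gaagcaaatcagaatGAACTGCAAGCACAT
FGFR1OP2-206 (short, chr12:26960614-26960628 and on to chr12:26960629-26960643, + strand): gaagcaaatcagaatGTACACTAAATAAAC
CISD3-204 (long, chr17:38730781-38730795 joined to chr17:38731320-38731334, + strand): ATCTCCTCCTGGCTGgcccagtggttccct
CISD3-205 (short, chr17:38731305-38731319 and on to chr17:38731320-38731334, + strand): CTTCCCTGGCCACAGgcccagtggttccct

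**Figure D1:**
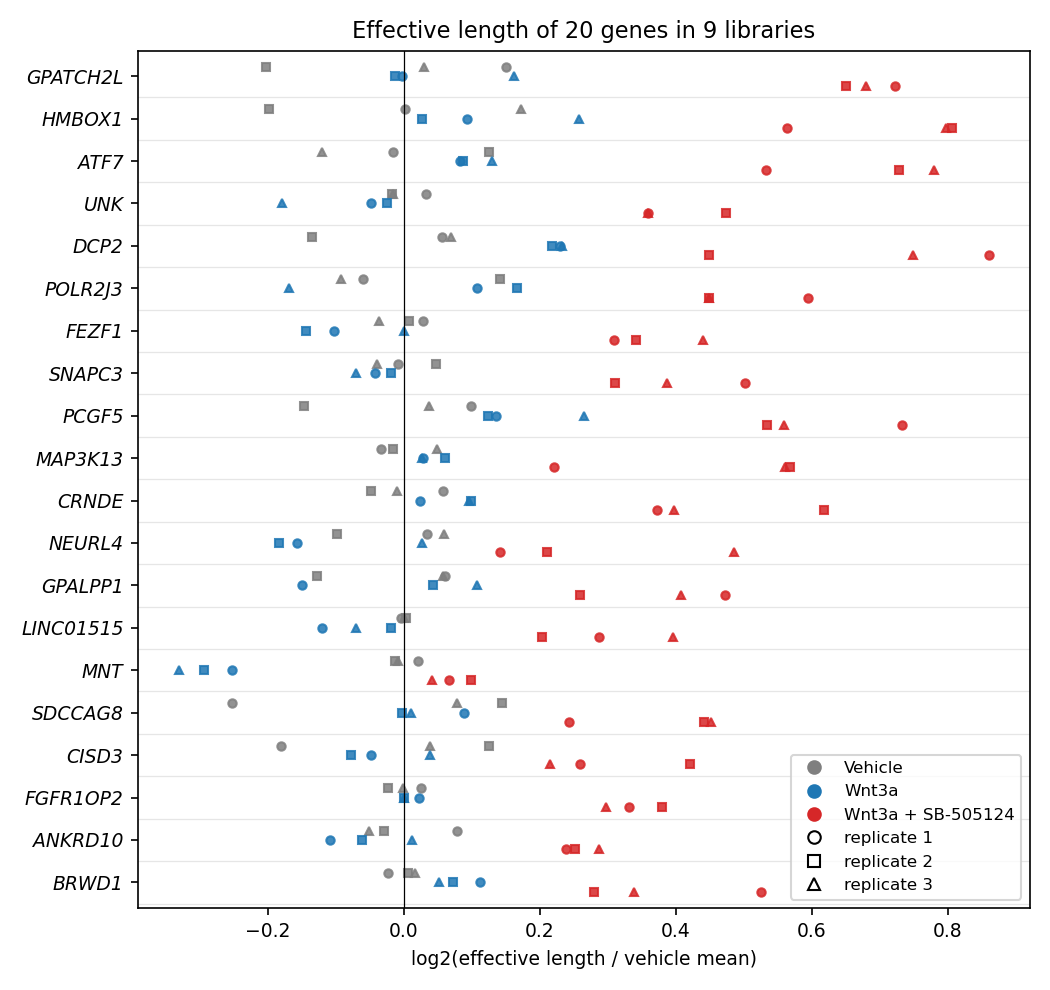
Effective length of the 20 genes in each of the 9 libraries, as log2 of its ratio to the vehicle mean (x axis). Colours are groups and symbols replicates, and the 3 inhibitor points lie to the right of the 6 others for every gene because the rule required it, with MNT near the vehicle points and DCP2 spread widely.

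Among the genes of transcription factors, ATF7, a leucine-zipper factor of the CREB family, had effective lengths of 3109, 3429 and 2893 bases with vehicle, 3329, 3338 and 3440 with Wnt3a, and 4547, 5208 and 5398 under SB-505124. Its mean was 3369 ± 62 bases with Wnt3a and 5051 ± 447 with the inhibitor (SD, n = 3), with replicate 1 the shortest of the inhibitor libraries. HMBOX1, a homeobox protein that binds telomere repeats, had 1314, 1144 and 1479 bases with vehicle, 1399, 1337 and 1569 with Wnt3a, and 1940, 2294 and 2281 under SB-505124. FEZF1, a zinc-finger repressor of nervous system development, had 1282, 1263 and 1226 bases, then 1170, 1137 and 1257, then 1558, 1593 and 1705. Its 2 coding transcripts of known ends differ by a coding sequence of 1425 against 1275 bases and by a 3′ untranslated region of 606 against 31 bases.

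MNT, a partner of MAX that opposes MYC, followed another course. Its effective lengths were 4637, 4530 and 4545 bases with vehicle, 3838, 3729 and 3634 with Wnt3a, and 4788, 4893 and 4704 under SB-505124. The Wnt3a libraries were the short ones, and the inhibitor libraries exceeded the highest vehicle library by 66.9 bases only. The log2 ratio of mean effective lengths for MNT was 0.36 for inhibitor over Wnt3a, 0.07 for inhibitor over vehicle and -0.29 for Wnt3a over vehicle. MNT has a single long transcript, MNT-201 of 4996 bases, and 8 short ones, led by the intron-derived MNT-209 of 2813 bases.

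SNAPC3, a subunit of the complex that activates small nuclear RNA genes, averaged 3196 ± 58 bases with Wnt3a and 4353 ± 293 with the inhibitor. POLR2J3, a copy of a subunit gene of RNA polymerase II, averaged 706 ± 85 and 970 ± 57 bases. Close copies of POLR2J3 exist, so the split of reads among them is uncertain and so are its length and level. PCGF5, a subunit of Polycomb repressive complex 1, had 3242, 2735 and 3107 bases with vehicle, 3325, 3298 and 3637 with Wnt3a, and 5030, 4384 and 4462 under SB-505124. BRWD1, a bromodomain protein that binds acetylated chromatin, went from 5484 ± 116 bases with Wnt3a to 6781 ± 614 with the inhibitor, with 7474 bases in inhibitor replicate 1 and 6305 and 6564 in the others.

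DCP2 and UNK act on RNA, and GPATCH2L and GPALPP1 are given beside them. DCP2, the enzyme that removes the cap of mRNAs, had 4527, 3966 and 4570 bases with vehicle, 5104, 5067 and 5118 with Wnt3a, and 7908, 5941 and 7318 under SB-505124. Its inhibitor libraries were the most scattered of the set relative to the mean with a coefficient of variation of 14.3%, and inhibitor replicate 2 lay 823 bases above the highest other library. UNK, a zinc-finger protein that binds mRNAs and limits their translation, had 2405, 2324 and 2325 bases, then 2273, 2311 and 2076, then 3015, 3265 and 3015. GPATCH2L, named for the glycine-rich patch found in proteins that act with RNA helicases, had 6598, 5165 and 6069 bases, then 5930, 5893 and 6653, then 9802, 9326 and 9518. This was the longest gap of the set, as the lowest inhibitor library lay 2672 bases above the highest other library. GPALPP1, whose function is little known, averaged 2370 ± 216 bases with Wnt3a and 3080 ± 231 with the inhibitor.

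The remaining protein-coding genes were MAP3K13, NEURL4, SDCCAG8, FGFR1OP2, CISD3 and ANKRD10. MAP3K13, a kinase upstream of JNK signalling, had 2147, 2730 and 2717 bases with the inhibitor against 1892 ± 25 with Wnt3a, so inhibitor replicate 1 stood lowest. NEURL4, a centriole protein, averaged 2730 ± 220 bases with Wnt3a and 3572 ± 464 with the inhibitor, where the libraries held 3230, 3387 and 4100 bases. SDCCAG8, a centrosome protein needed for cilia, averaged 1476 ± 51 and 1879 ± 150 bases. FGFR1OP2, first named as a fusion partner of a fibroblast growth factor receptor gene, had 1824, 1763 and 1790 bases with vehicle, 1820, 1793 and 1792 with Wnt3a, and 2255, 2332 and 2202 under SB-505124. These FGFR1OP2 libraries were tight, with a gap of 378 bases or more between the inhibitor libraries and the others. CISD3, an iron-sulphur protein of mitochondria, averaged 1253 ± 53 and 1575 ± 120 bases, and ANKRD10, an ankyrin repeat protein, 1341 ± 57 and 1664 ± 29.

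Both non-coding members were short. CRNDE, a long non-coding RNA raised in colorectal and other tumours, averaged 584 ± 17 bases with Wnt3a and 767 ± 74 with the inhibitor. LINC01515 averaged 657 ± 23 and 847 ± 57 bases. Across the 20 genes, inhibitor replicate 1 was the longest of its group in 7, the shortest in 9 and between the others in 4. That library also had the lowest total expected count of all 9, and without it 45 genes met the rule.

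The deposited tables give gene rows only, so the share of long transcripts was bounded. Given a gene's average length in a library and the annotated lengths, the share lies between 2 limits whatever the mixture within each class, provided that the annotation holds all the transcripts. For UNK the possible share of the long class, which is UNK-205 alone, was 40.6% to 56.4% with vehicle, 31.1% to 53.7% with Wnt3a and 67.1% to 81.9% with the inhibitor. For PCGF5 it was 29.4% to 40%, 38.5% to 46.3% and 56.1% to 68.8%. For FGFR1OP2 it was 43.1% to 58.5%, 44.6% to 58.3% and 65.2% to 81.5%. In these 3 genes the limits with the inhibitor lay wholly above those of the 6 other libraries, as in 0.606% of 7590 rows with a matching identifier and transcripts of more than 1 length, and in the other 16 genes matched they overlapped. The limits come from the lengths that the rule used, so nothing is read from these counts. In MNT the Wnt3a limits, 39.9% to 75.3%, lay wholly below both the vehicle limits of 81% to 93.1% and the inhibitor limits of 88.9% to 98.8%.

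**Figure D2:**
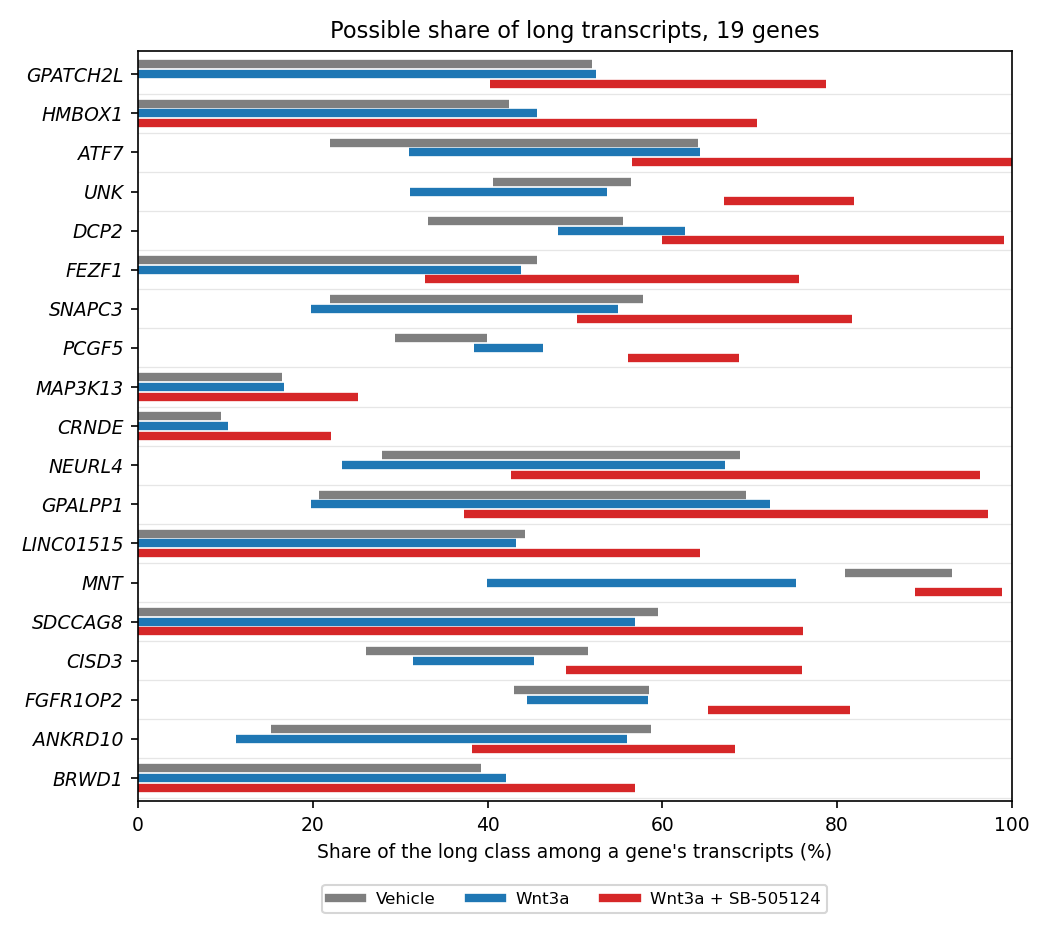
Possible share of the long transcript class (x axis, percent) in 19 genes, where each bar spans the lowest and highest limit over the 3 libraries of a group. Red bars of UNK, PCGF5 and FGFR1OP2 do not overlap the grey and blue bars, and in MNT the blue bar stands apart on the left.

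Multiplied by the gene's TPM, the limits give the possible level of each class. TPM as deposited and TPM rescaled by the TMM factors of the counts, an alternative chosen after seeing the data, differ by 0.35 in the log2 ratio of inhibitor over Wnt3a for all rows alike. In ATF7 the possible level of the long transcripts was 8.59 to 20.8 TPM with vehicle, 10.3 to 23 TPM with Wnt3a and 29.9 to 65.6 TPM with the inhibitor, while the ranges of its short class overlapped. DCP2 had 2.96 to 4.37 TPM of long transcripts with vehicle, 3.81 to 5.5 with Wnt3a and 7.44 to 10.4 with the inhibitor. FGFR1OP2 had 13.9 to 18 TPM of long transcripts with the inhibitor and 7.9 to 13.7 in the others. In these 3 genes the long class lay wholly above the 6 other libraries, as in 5.28% of the 7590 rows. On TMM-scaled TPM it did so in these 3 and in UNK, as in 10.8% of rows. The levels of both classes rest on the lengths that the rule used, so nothing is read from how many genes lay above or below.

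In 6 genes, UNK, PCGF5, MAP3K13, CRNDE, CISD3 and FGFR1OP2, the level of the short class lay wholly below the 6 other libraries, as in 4.69% of rows. On TMM-scaled TPM it did so in 4, as in 2.37% of rows, with UNK and FGFR1OP2 overlapping. These counts too come from lengths that the rule used and are a description. PCGF5 had 2.43 to 3.74 TPM of short transcripts with the inhibitor against 7.26 to 9.5 with vehicle and 6.59 to 7.84 with Wnt3a, and its long class overlapped, at 4.78 to 5.36 TPM with the inhibitor and 4.29 to 6.48 with Wnt3a. UNK had 5.22 to 10.71 TPM of short transcripts against 10.75 to 16.2 with vehicle and 11.4 to 19.8 with Wnt3a, and FGFR1OP2 had 3.82 to 7.42 TPM against 8.11 to 12.6 and 9.29 to 13.2. The retained-intron CISD3-205 was at 2.26 to 5.79 TPM with the inhibitor against 15 to 22.8 with vehicle and 14.6 to 21.1 with Wnt3a. The long class of CISD3 was at 4.61 to 7.13 TPM against 8.05 to 18.2 and 9.7 to 12.1, wholly below the others as in 10.9% of rows, but on TMM-scaled TPM it overlapped, at 5.39 to 8.33 against 7.69 to 17.6 with vehicle.

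**Figure D3:**
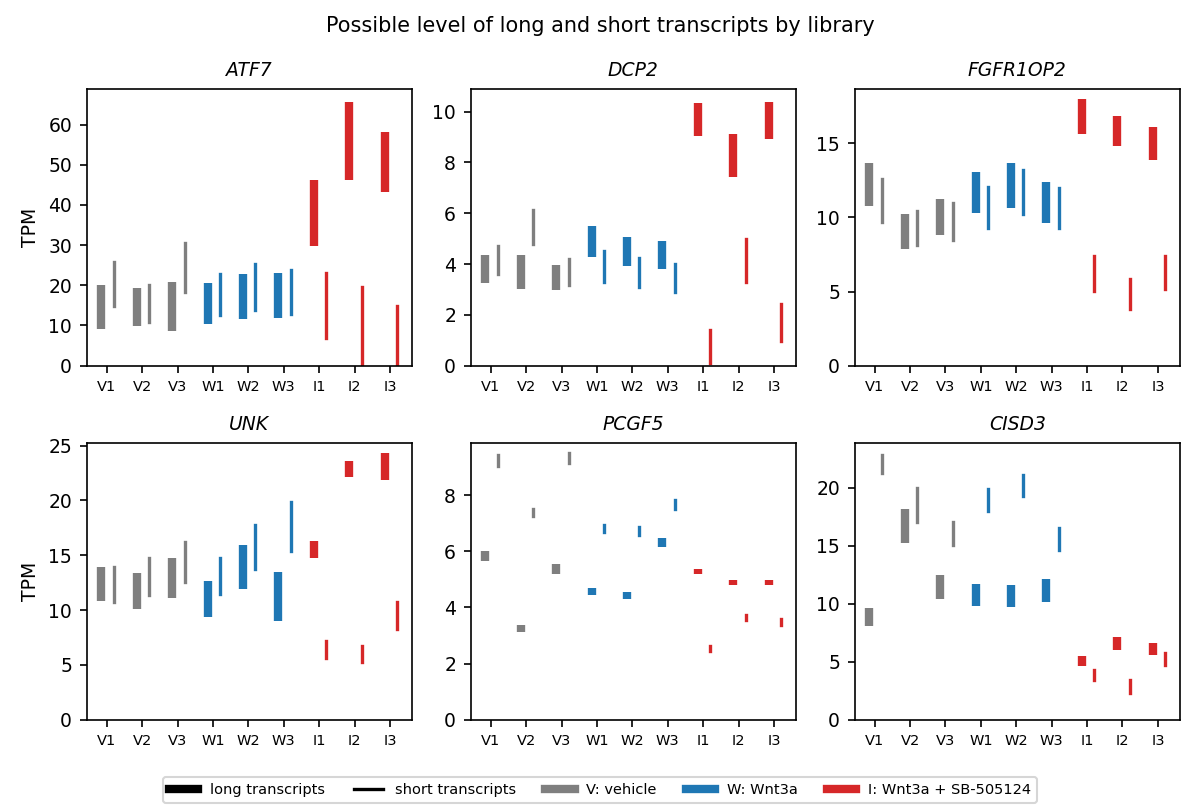
Possible level in TPM (y axis) of the long (thick bars) and short (thin bars) transcripts of 6 genes in each library. With the inhibitor the long bars of ATF7, DCP2 and FGFR1OP2 lie above the other libraries, and the short bars of FGFR1OP2, UNK, PCGF5 and CISD3 lie below them, but on TMM-scaled TPM, not drawn, the short classes of FGFR1OP2 and UNK overlap the others.

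The rule used effective lengths and a TPM limit in all 9 libraries, and gene counts of no comparison. Wnt3a against vehicle is the comparison without the inhibitor libraries, though its libraries entered the rule as well. Of the 20 genes, 0 passed the quasi-likelihood test of edgeR in Wnt3a against vehicle, where 75 of 17880 genes did (0.419%, of which 0.397% higher and 0.0224% lower), and DESeq2 and limma-voom also called 0 of the 20. At an unadjusted p under 0.05, 1 of the 20 was counted, GPATCH2L, against 7.62% of all genes. GPATCH2L had 32, 28 and 35.6 normalised CPM (counts scaled to the library's depth) with vehicle and 37.2, 39.2 and 42.4 with Wnt3a, a log2 fold change of 0.31 ± 0.11 (SE) with an edgeR adjusted p of 0.455. Its 3 Wnt3a libraries were above the 3 vehicle libraries. Of the log2 fold changes of the 20 genes, 13 were above 0 and 7 below, with a median of 0.07 against 0.01 over all genes. The largest negative one was that of MNT, -0.37 ± 0.19 (edgeR adjusted p of 0.737). In simulated data of this design edgeR recovered 48% of 2-fold changes placed at random among the 17880 genes, so changes could be missed. That share is not specific to the 20 genes, whose standard errors here ran from 0.10 (DCP2) to 0.225 (FEZF1).

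Effective length did not pass the limma test in any row in Wnt3a against vehicle (0 of 8881, or 0%). At an unadjusted p under 0.05 there were 285 rows (3.21%), of which MNT was the one among the 20 genes. MNT came close to the threshold, with a limma p of 7.78e-06 and an adjusted p of 0.069. The rule used the Wnt3a mean, so a low Wnt3a length favoured membership. The place of MNT in that count and its p-values are therefore no independent result. The log2 ratio of Wnt3a over vehicle was above 0 in 12 of the 20 genes and below in 8, with a median of 0.02. In 6 genes the Wnt3a and vehicle libraries did not overlap, against 7.36% of all rows. DCP2, PCGF5 and BRWD1 were longer with Wnt3a there (3.99% of all rows), and MNT, UNK and LINC01515 shorter (3.38% of all rows). These lengths entered the rule, so the counts are a description and no effect of Wnt3a is read from them.

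With the inhibitor, gene counts of the 20 genes went both ways. In edgeR, 11 were higher and 3 lower than with Wnt3a, where 24.5% of all genes were higher and 25.9% lower (50.4% in all), and against vehicle 10 were higher and 2 lower, where 25% and 24.8% of all genes were (49.7% in all). These comparisons share the inhibitor libraries that chose the genes, so the counts are a description. The median log2 fold change against Wnt3a was 0.60 over the 20 genes and -0.06 over all genes. All genes, here and in the other comparisons of counts, include genes under the TPM limit of the rule. Over the 8881 rows that met that limit, the median log2 ratio of TMM-scaled TPM was 0.235 and that of length -0.02. The -0.06 and the shares of all genes are therefore not matched to the 20 genes in level. ATF7 had 73.8, 78.2 and 83.5 CPM with Wnt3a and 205, 291 and 259 CPM with the inhibitor, a log2 fold change of 1.68 ± 0.13. HMBOX1 had 13, 17.1 and 14.7 CPM against 34.7, 37.6 and 39.7, a log2 fold change of 1.32 ± 0.12. DCP2 had 30, 26.3 and 27.1 CPM against 70.4, 62.8 and 68.6, a log2 fold change of 1.27 ± 0.10. In these 3 genes all inhibitor libraries were above all Wnt3a libraries.

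The 3 lower genes were CISD3, NEURL4 and CRNDE. CISD3 had 24.4, 23.8 and 23.8 CPM with Wnt3a and 11.6, 13.7 and 13.9 with the inhibitor, a log2 fold change of -0.88 ± 0.15, and its groups did not overlap. CRNDE had 10.9, 12.3 and 11.6 CPM against 7.48, 9.25 and 7.96, or -0.49 ± 0.14. NEURL4 had 39.5, 42.6 and 27.2 CPM against 22.4, 24.2 and 28.3, or -0.54 ± 0.20, with overlapping groups, and its edgeR call was lost in 6 of 14 alternative fits (limma-voom, and without vehicle replicate 3, Wnt3a replicate 1 or 2, or inhibitor replicate 1 or 2). The call of CRNDE was lost without Wnt3a replicate 2. FEZF1 had 34.2, 40.6 and 42.5 CPM against 36.3, 68.9 and 75.9, a log2 fold change of 0.63 ± 0.23, and inhibitor replicate 1 lay among the Wnt3a libraries. The call of FEZF1 was lost in 8 of the 14 alternative fits, namely limma-voom and all fits that left out 1 library except those without vehicle replicate 2 or inhibitor replicate 1.

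**Figure D4:**
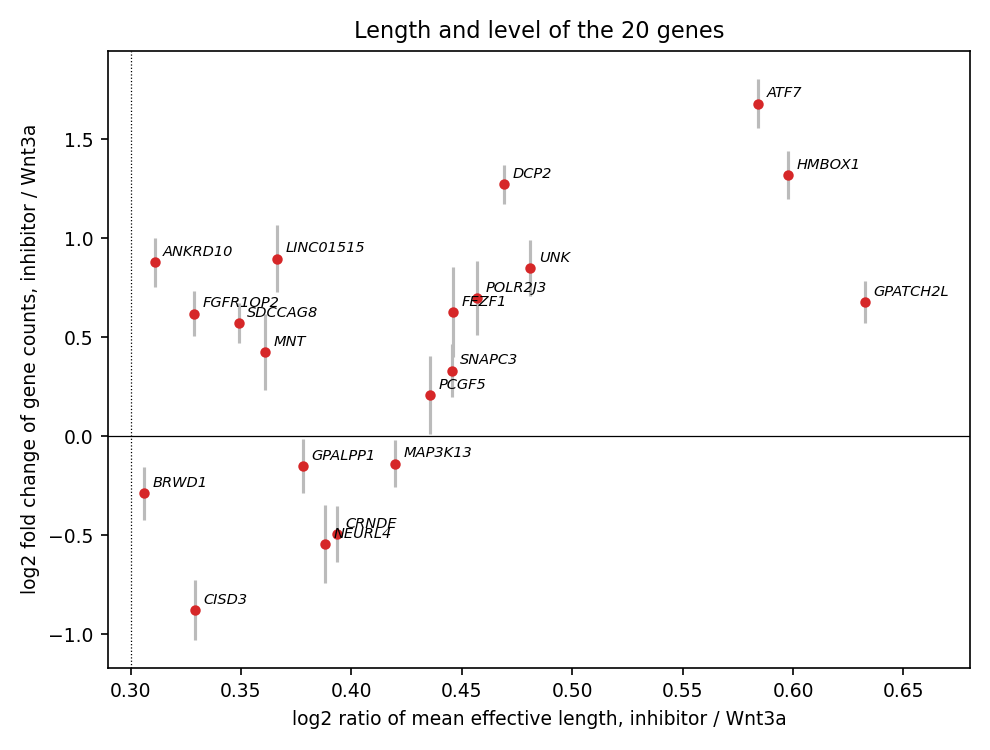
Log2 ratio of mean effective length (x axis) against log2 fold change of gene counts with its standard error (y axis), inhibitor over Wnt3a, for the 20 genes. The dotted line is the limit of the rule at 0.3, and 14 genes lie above 0 in counts and 6 below.

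TMM-scaled counts and deposited TPM differ by each gene's length ratio and by the shift of 0.35 common to all rows. In 8 of the 20 genes the count fold change was above 0 while the log2 ratio of deposited TPM was below 0, but on TMM-scaled TPM this held for 2 of them, SNAPC3 (-0.11) and PCGF5 (-0.22). The ratio was below 0 in 14 of the 20 genes on deposited TPM and in 8 on TMM-scaled TPM, and the median over the 8881 rows was -0.12 and 0.23. GPATCH2L had a log2 fold change of 0.68 ± 0.11 in counts, while its TPM were 9.4, 10.5 and 9.39 with Wnt3a and 7.83, 8.15 and 7.62 under SB-505124, a log2 ratio of -0.31 that became 0.05 on TMM-scaled TPM. FGFR1OP2 had 0.62 ± 0.12 in counts, and TPM of 22.4, 23.9 and 21.6 against 23, 20.7 and 21.3, a log2 ratio of -0.06 with overlapping groups, and 0.29 on TMM-scaled TPM. PCGF5 had 0.21 ± 0.20 in counts, and TPM of 11.4, 11.2 and 14 against 7.79, 8.52 and 8.36, a log2 ratio of -0.57. Of the others, POLR2J3, FEZF1, MNT and SDCCAG8 were below 0 on deposited TPM and above 0 on TMM-scaled TPM.

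None of the 20 genes is in the 16 gene lists compared, and the machinery of splicing and 3′ end formation is given beside them. Against Wnt3a, 9 of 14 SR proteins, which select exons, were lower with the inhibitor and 2 higher, with a median log2 fold change of -0.71. SRSF5 was lowest at -2.31 ± 0.38 and SRSF2 stood at -1.67 ± 0.11. Of 12 kinases of the CLK, DYRK and SRPK families, several of which phosphorylate SR proteins, 9 were higher and 1 lower, with a median of 0.73, and CLK4 had 2.01 ± 0.16. Of 21 cleavage and polyadenylation factors, 5 were higher and 7 lower, with a median of -0.06. Of 16 genes of nonsense-mediated decay and its known targets, 6 were higher and 2 lower, with a median of 0.23. Higher and lower genes numbered 7 and 11 of 25 hnRNP proteins, 11 and 6 of 26 other splicing regulators, 11 and 3 of 30 core spliceosome proteins, and 12 and 3 of 26 transcription elongation factors. These counts stand beside 24.5% higher and 25.9% lower over all genes, and the part of these lists in the transcript lengths was not tested.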

How the data were processed

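RNA sequencing of TC32 cells gave 9 libraries in 3 groups of 3, all mapped from the labels. Per the submitters' processing notes, the authors used CASAVA 1.8.2, Trimmomatic 0.36, STAR 2.5.2a and RSEM 1.2.31 on hg38. The release of the annotation is not given in the sources used here, nor is the strand setting. The deposited gene tables hold an expected count, TPM, FPKM (not used), a length and an effective length, per the file headers. Effective length was 49.92 to 49.93 bases below length in every library.

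The 20 genes and the lists were chosen with earlier results of these data known. Rows named PAR (45) were left out of the rule, and their counts were added to their partners. Expected counts were rounded, filtered with filterByExpr (17880 genes, all 20 members kept), scaled by TMM and fitted in 1 model of the 3 groups with edgeR 4.0.16 in R 4.3.3. Log2 effective length of 8881 rows was fitted with limma 3.58.1. Tests were 2-sided, with Benjamini-Hochberg adjustment over all genes or rows at 0.05, and were tested on simulated data. All 20 genes are named, since the rule took the largest length changes, levels and fold changes and allowed further ones by function, chosen after values were seen. Transcript models came from GENCODE release 29. Alternatives were other TPM and ratio limits, the length column, DESeq2 1.42.0, limma-voom, RLE factors, no count filter, a replicate block and leaving out each library. TMM-scaled TPM was added after seeing the data. In effective length, same-numbered vehicle and Wnt3a libraries deviated together (correlations of 0.10 to 0.17 in the 3 pairs). Wnt3a and inhibitor libraries did so too (0.10 to 0.48), while vehicle and inhibitor libraries held both signs (-0.12 to 0.16). Whether the numbers pair the samples is therefore not settled. The block left 0 rows called in Wnt3a against vehicle and 469 in inhibitor against Wnt3a.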

Additional observations from a re-analysis of the deposited data

How the results depend on the processing

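The number of genes meeting the rule was 42 at a TPM limit of 1, 10 at 10, 50 at a ratio limit of 0.2 and 3 at 0.5, and 21 to 45 when 1 library was left out. The 45 came without inhibitor replicate 1, the library with the lowest total. Without Wnt3a replicate 1 the ratio of ANKRD10 was 0.28, under the limit. Of 140 length ratios recomputed for single genes, 4 moved by more than the SD of the 3 inhibitor libraries, all without a Wnt3a library. Leaving out 1 of 3 inhibitor libraries cannot move a ratio beyond that SD. The length column adds nearly the same bases to every library. The 136 others are therefore not read as stability.

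Calls over all genes in Wnt3a against vehicle, 75, became 299 with DESeq2, 259 without the count filter and 20 to 140 when 1 library was left out, while calls among the 20 genes were 0 in all these fits. Rows called for effective length, inhibitor against Wnt3a, were 590, and 336 to 569 with 1 library left out, the lowest values being 336, 339, 354 and 384 without Wnt3a replicates 1 and 2 and inhibitor replicates 2 and 3 in turn. Calls among the 20 genes were 11 to 15 against Wnt3a and 12 to 14 against vehicle over all fits. On TMM-scaled TPM, chosen after seeing the data, genes with counts above and TPM below 0 went from 8 to 2, long classes below the others from 1 to 0 and above from 3 to 4, and short classes below from 6 to 4. The cause of these shifts was not tested. No direction of a called result reversed.

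Correlations of same-numbered deviations ran from -0.18 to 0.42 in log2 CPM and from -0.12 to 0.48 in effective length. In effective length all were above 0 for vehicle with Wnt3a (0.10 to 0.17) and for Wnt3a with inhibitor (0.10 to 0.48). In log2 CPM all were above 0 for vehicle with Wnt3a (0.01 to 0.42). The other comparisons held both signs, so whether the numbers pair the samples is not settled by these values. With a replicate block the counts of calls were 79, 9166 and 9039 for the 3 comparisons of gene counts, 0 among the 20 genes in Wnt3a against vehicle, and for effective length 0 in Wnt3a against vehicle and 469 in inhibitor against Wnt3a. MNT passed the threshold under the block, with a log2 fold change of 0.45 against Wnt3a.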
